A study of Macaca mulatta with 24 samples.

Results

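The genes described here make, carry, sense or break down prostaglandins and thromboxane in endometrium, the uterine lining in which an embryo implants. A list of 10 symbols was matched to the gene names of a rhesus whole-genome array, and 7 of the 10 were found, each with 1 probe, among 18976 distinct gene names on 20217 probes. These were PTGS1, PTGS2, TBXAS1, PTGES, HPGD, PTGER4 and ABCC4. PTGES3 and PTGDS were named in the description of 1 probe each but not in the gene name, and PTGIS was not matched. RNA came from endometrium of rhesus monkeys (Macaca mulatta, females of proven fertility), and each of the 6 groups had 4 arrays. The conception groups came from mated cycles with proven conception, sampled at day 2, 4 or 6 after ovulation, and the non-mated groups came from normally ovulating cycles at the same days. The source names of the conception arrays count these days from fertilization. The titles of 8 non-mated arrays name day 2 where every other label gives day 4 or 6, and the day was taken from those labels. No label ties the arrays of a group to separate animals. The p-values thus reflect spread among arrays that could be technical.

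Prostaglandin synthesis begins when a cyclooxygenase turns arachidonic acid, cut from membrane lipids, into prostaglandin H2. PTGS1 is the form most tissues keep at a steady level and PTGS2 is the form that cells induce. Terminal synthases then give each cell its own product, PTGES making prostaglandin E2 and TBXAS1 making thromboxane A2, while ABCC4 can export prostaglandins, PTGER4 is a receptor for prostaglandin E2 and HPGD inactivates prostaglandins. In the uterus this pathway is known for its part in vessel permeability, implantation and menstruation.

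Each gene was read through a single 60-base probe, so its value is that of the short stretch the probe covers. Bases 31 to 60 of each probe follow, 5′ to 3′, because they show what was hybridised and where the probes differ. Capitals mark the letters ATTAAA, a common variant of the signal at which transcripts are cut and polyadenylated.
PTGS1: gaacatttgttcctggagttttgatttggt
PTGS2: gttgtgtatgtgaatgtttcagtgcctcag
TBXAS1: attttgggaaaatgtcactgaagggattga
PTGES: tgtgtgatttttagtcATTAAAtggaagtg
HPGD: tccaaaaatctcaggaATTAAActgttaac
PTGER4: tttattttgagatgtaaagattcccaaatg
ABCC4: actgaaattacaacggtgatcataatgagg

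The files place the probes on the rheMac2 build. PTGS1 (XM_001087917) was read at chr15:13601612-13601671 and PTGS2 (XM_001107538) at chr1:184036144-184036203. The probe of TBXAS1 (ENSMMUT00000005994) lay at chr3:177506894-177506953 and that of PTGES (XM_001107574) at chr15:9101165-9101224. HPGD (ENSMMUT00000028699) was read at chr5:166561587-166561646, PTGER4 (XM_001085375) at chr6:40538488-40538547 and ABCC4 (ENSMMUT00000043133) at chr17:75413332-75413391. All 7 chromosomes were those that RefSeq gives for these genes in its own rhesus assembly. Exon and UTR positions are not given, since no annotation of rheMac2 was used here. The description of the ABCC4 probe carries another gene ID than RefSeq's ABCC4, on the same chromosome. The letters ATTAAA began at base 47 of both the PTGES and the HPGD probe. On the printed strand 4.55% of all 20217 probes held ATTAAA and 12.8% held AATAAA, and on the other strand 3.46% and 4.67% did. PTGER4 had AATAAA on the other strand, and the remaining 4 probes had neither motif on either strand. The cyclooxygenase probes shared no run longer than 6 bases, and the longest run shared by any pair of the 7 was 8 bases, between PTGES and PTGER4.

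A probe's level is given as log2 of its processed signal, scaled so that the 75th percentile of each array is 0. The share of probes well above background was 53.3% to 71.5% on 21 arrays. On 3 non-mated arrays, called weak here, that share was 4.33% (day 2 replicate 3), 37.9% (day 4 replicate 1) and 21.8% (day 4 replicate 2). The scanner software sets a floor for spots at background, and among members the floor was -0.26, -3.66 and -1.57 on these 3 arrays in the same order, against -6.21 to -5.57 on other arrays. On the day 2 weak array PTGS1, PTGS2, TBXAS1, PTGES and PTGER4 all had that floor as their level. The endometrial genes HOXA10, HOXA11 and PAEP were well above background on 22, 23 and 21 of 24 arrays. A level from whole tissue cannot tell fewer cells of a type from less RNA per cell. Of the members, PTGS2, PTGES and ABCC4 were well above background on 22 arrays each, PTGER4 on 19, HPGD on 15, PTGS1 on 14 and TBXAS1 on 10. All 7 passed the filter of 3 arrays well above background in at least 1 group.

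None of the 7 genes passed an adjusted p of 0.05 in any comparison with limma's moderated test over 12247 features. Between cycle types the count of members was 0 of 7 at day 2, against 0% of all features, and 0 of 7 at day 4, against 0%. It was 0 of 7 at day 6 and 0 of 7 for the mean over days, against 0.00817% of all features in each. At an unadjusted p under 0.05 there were 0 members at day 2 (2.54% of all features), 2 at day 4 (5.9%), 1 at day 6 (2.47%) and 4 for the mean over days (6.82%). In the mean over days all 7 differences, conception minus non-mated, were negative, with a median of -0.91, against 54.9% negative and a median of -0.07 over all features. Without the weak arrays 6 of 7 were negative, with a median of -0.77, against 47.8% negative and a median of 0.01 over all features. The members were chosen with earlier results of these data known, so these signs and medians do not test them as a set. Without the weak arrays 0 of 7 passed in each of the 4 comparisons, against 0% at days 2 and 4, 0.0245% at day 6 and 0.0163% for the mean over days. Members at an unadjusted p under 0.05 then numbered 0 at day 2 (1.19% of all features), 0 at day 4 (5.53%), 3 at day 6 (9.34%) and 2 for the mean over days (7.74%). The values below are therefore descriptions of differences that did not pass.

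**Figure D1:**
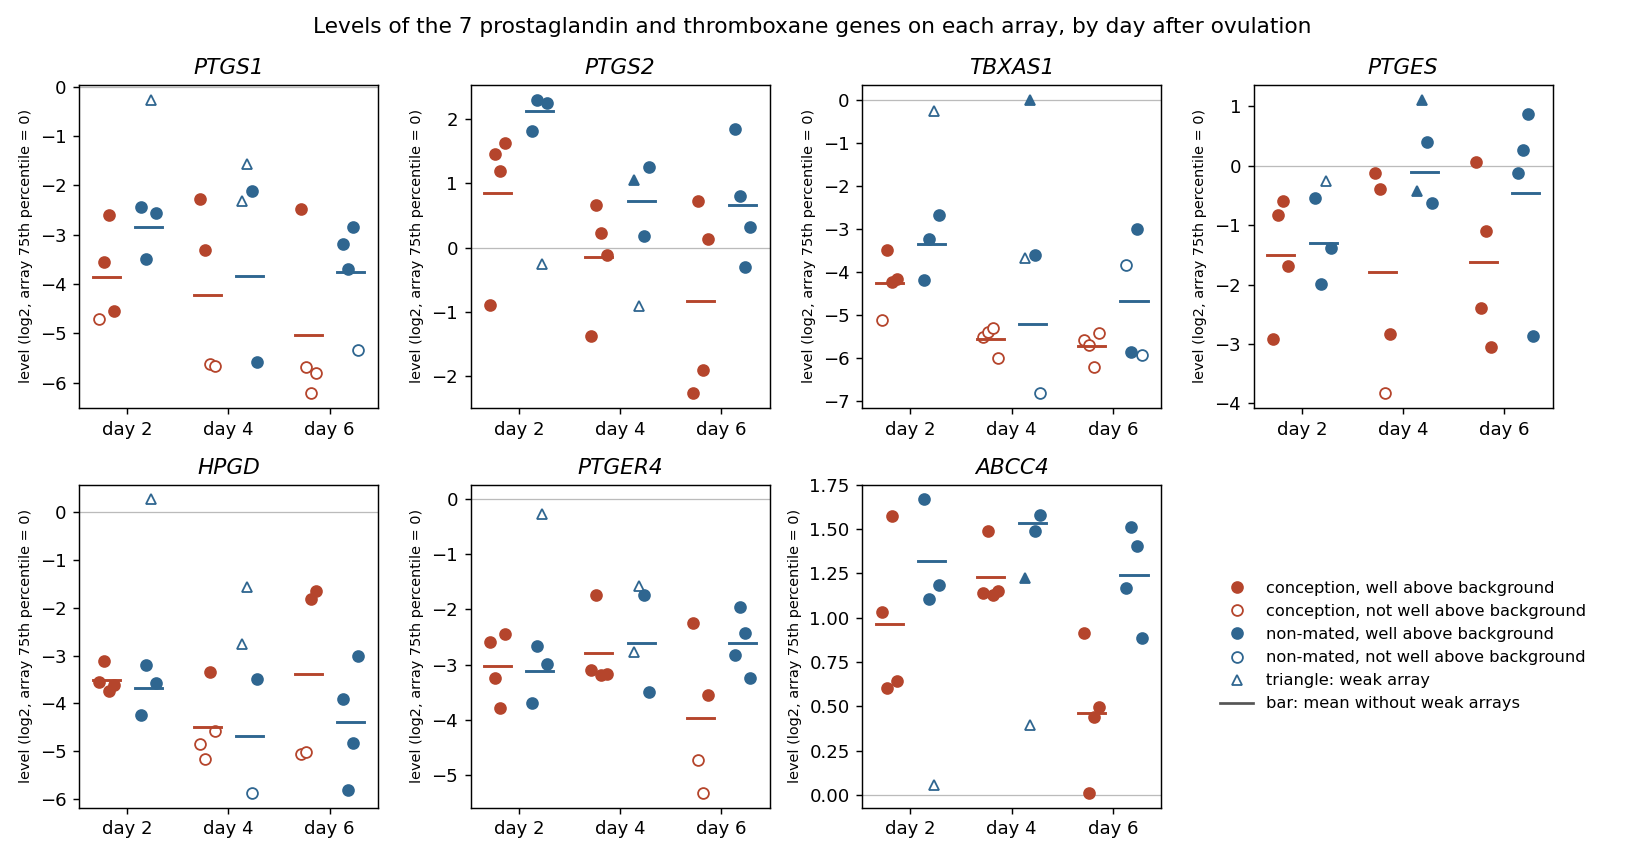
Level (log2, array 75th percentile at 0) of each of the 7 genes on each of the 24 arrays, with conception left of non-mated at days 2, 4 and 6 after ovulation; open symbols are not well above background, triangles are the 3 weak arrays and bars are means without them. TBXAS1 shows open symbols on all 8 conception arrays of days 4 and 6, and a weak array holds the highest level in each of the PTGS1, TBXAS1, PTGES, HPGD and PTGER4 panels.

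PTGS2, the inducible cyclooxygenase, had levels of -0.90, 1.45, 1.19 and 1.62 in conception endometrium at day 2, against 1.81, 2.30, -0.26 and 2.25 in non-mated endometrium. The -0.26 came from the weak array, and without it every non-mated level lay above every conception level, as was so for 2.85% of all features in either direction. At day 4 the levels were -1.38, 0.67, 0.23 and -0.12 in conception cycles, against 1.05, -0.91, 0.18 and 1.25 in non-mated cycles. At day 6 they were -2.27, 0.73, -1.90 and 0.14 in conception cycles, against 1.84, 0.80, -0.30 and 0.31 in non-mated cycles. The groups overlapped at days 4 and 6, with a pair of conception arrays at day 6 lower than every non-mated array. The log2 difference was -0.68 ± 0.75 (SE) at day 2, -0.55 ± 0.75 at day 4 and -1.49 ± 0.75 at day 6, a ratio of 0.356 at day 6, and the adjusted p with limma was 0.795, 0.799 and 1.00. The difference without the weak arrays was -1.28 at day 2 and -0.87 at day 4. Over the days the difference was -0.91 ± 0.43 (adjusted p = 0.677 with limma), and -1.21 without the weak arrays (adjusted p = 0.525). The day 6 difference was negative within slide 1 (-2.61) and within scan days 1 (-1.13) and 2 (-1.85). Only these batches held both cycle types at day 6, and slide 1 is part of scan day 2. Each slide of scan day 1 held 1 cycle type, so slide and cycle type cannot be told apart there.

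PTGS2 also had lower levels at later days. In conception endometrium day 6 minus day 2 was -1.67 ± 0.75 (adjusted p = 0.997 with limma, and 0.245 without the weak arrays). It was -3.10 on slide 7 and -1.48 on slide 8, each of which held all 3 days of conception cycles. In non-mated endometrium the same difference was -0.86 ± 0.75, and -1.46 without the weak arrays. A different day course in the 2 cycle types did not pass the interaction test (adjusted p = 0.990 with limma).

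PTGS1, the steady cyclooxygenase, had levels of -4.71, -3.55, -2.60 and -4.54 in conception cycles at day 2, against -2.45, -3.50, -0.26 and -2.57 in non-mated cycles. At day 4 they were -2.27, -3.32, -5.62 and -5.66 in conception cycles, against -2.32, -1.57, -2.11 and -5.57 in non-mated cycles. At day 6 they were -2.48, -5.68, -6.21 and -5.80 in conception cycles, against -3.19, -3.70, -2.84 and -5.33 in non-mated cycles. The probe was well above background on 3, 2 and 1 conception arrays at days 2, 4 and 6, and on 3, 2 and 3 non-mated arrays. Detection limits differed between arrays, with -5.57 counted on non-mated day 4 replicate 4 and -4.71 not counted on conception day 2 replicate 1. Replicate 1 was the lone conception array at day 6 with a measured signal, and its level was above all 4 non-mated levels. The difference was -1.66 ± 0.97 (SE) at day 2, -1.32 ± 0.97 at day 4 and -1.28 ± 0.97 at day 6, with adjusted p of 0.789, 0.706 and 1.00 with limma. Without the weak arrays it was -1.01 at day 2 and -0.38 at day 4. The mean over days was -1.42 ± 0.56 (adjusted p = 0.671 with limma) and -0.89 without the weak arrays. The day 6 difference was -2.73 within scan day 1, where neither conception array was well above background. It was -0.89 on slide 1 and 0.18 within scan day 2, of which slide 1 is part. On scan day 1 slide and cycle type cannot be told apart.

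TBXAS1, the synthase that makes thromboxane A2, was at the limit of detection. Its levels at day 2 were -5.11, -3.49, -4.24 and -4.17 in conception cycles, against -4.17, -3.22, -0.26 and -2.68 in non-mated cycles. At day 4 they were -5.51, -5.39, -5.30 and -6.00 in conception cycles, against -3.66, 0.00, -3.59 and -6.81 in non-mated cycles. At day 6 they were -5.57, -5.68, -6.21 and -5.42 in conception cycles, against -3.84, -5.86, -3.01 and -5.94 in non-mated cycles. It was well above background on 3 conception arrays at day 2 and on 0 at days 4 and 6, so those 8 levels are bounds. Among non-mated arrays it was well above background on 3, 2 and 2 at days 2, 4 and 6. The 0.00 at day 4 came from a weak array. The lowest level of any probe well above background was -5.14 to -4.40 on conception arrays of days 4 and 6. On non-mated arrays of slides 5 and 6 at those days it was -7.12 to -6.67. Non-mated day 6 replicate 2 thus counted at -5.86, below the uncounted conception levels of -5.57, -5.68 and -5.42. The counts of the cycle types therefore do not compare like with like. The difference over the days was -1.59 ± 0.56 (SE, adjusted p = 0.620 with limma), and -0.77 without the weak arrays (adjusted p = 0.705). At day 4 it was -2.03 ± 0.98 (adjusted p = 0.703 with limma) and -0.35 without the weak arrays. No fold is given for days 4 and 6, since conception levels were unmeasured on all 8 arrays and non-mated levels on 2 of 4 arrays at each day.

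Within conception cycles TBXAS1 was measured on 3 of 4 arrays at day 2 and on none of the 8 arrays of days 4 and 6, and the unmeasured levels have no order among themselves. Neither day passed the test (log2 difference -1.30 ± 0.98, adjusted p = 1.00, at day 4, and -1.47 ± 0.98, adjusted p = 0.997, at day 6, limma). Both differences rest on the unmeasured levels of days 4 and 6. In non-mated cycles TBXAS1 was also lower at day 6 than at day 2, by -2.08 ± 0.98 (adjusted p = 0.758 with limma), and -1.30 without the weak arrays. The probe passed the filter only through the 2 groups of day 2, so its later days were not required to be well above background. The share of all probes well above background ran from 53.3% to 60.5% on the conception arrays of days 4 and 6, against 57.5% to 67.3% at day 2. Its part in the TBXAS1 and PTGS1 levels was not tested.

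PTGES makes prostaglandin E2, and was measured on all but 1 conception array. Its levels were -2.91, -0.83, -0.59 and -1.68 in conception cycles at day 2, against -0.54, -1.98, -0.26 and -1.38 in non-mated cycles. At day 4 they were -0.11, -0.38, -3.83 and -2.84 in conception cycles, against -0.43, 1.11, 0.40 and -0.62 in non-mated cycles. At day 6 they were 0.07, -2.40, -1.10 and -3.06 in conception cycles, against -0.13, 0.27, 0.88 and -2.86 in non-mated cycles. The groups overlapped at each day, and the arrays of a group spanned up to 3.71 log2 units in conception cycles and 3.74 in non-mated cycles. The difference was -0.46 ± 0.87 (SE) at day 2, -1.91 ± 0.87 at day 4 and -1.16 ± 0.87 at day 6, with adjusted p of 0.862, 0.703 and 1.00 with limma. With the weak arrays left out it was -0.20 at day 2 and -1.68 at day 4. It was -1.18 ± 0.50 over the days (adjusted p = 0.677 with limma) and -1.02 without the weak arrays. At day 4 the low pair of conception arrays was scanned on scan day 1 and the high pair on scan day 2. The day 4 difference was -3.22 within scan day 1 and -0.59 within scan day 2, whose non-mated arrays were both weak. At day 6 it was -2.65 within scan day 1, -1.04 on slide 1 and 0.33 within scan day 2, of which slide 1 is part. On scan day 1 slide and cycle type cannot be told apart at either day.

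**Figure D2:**
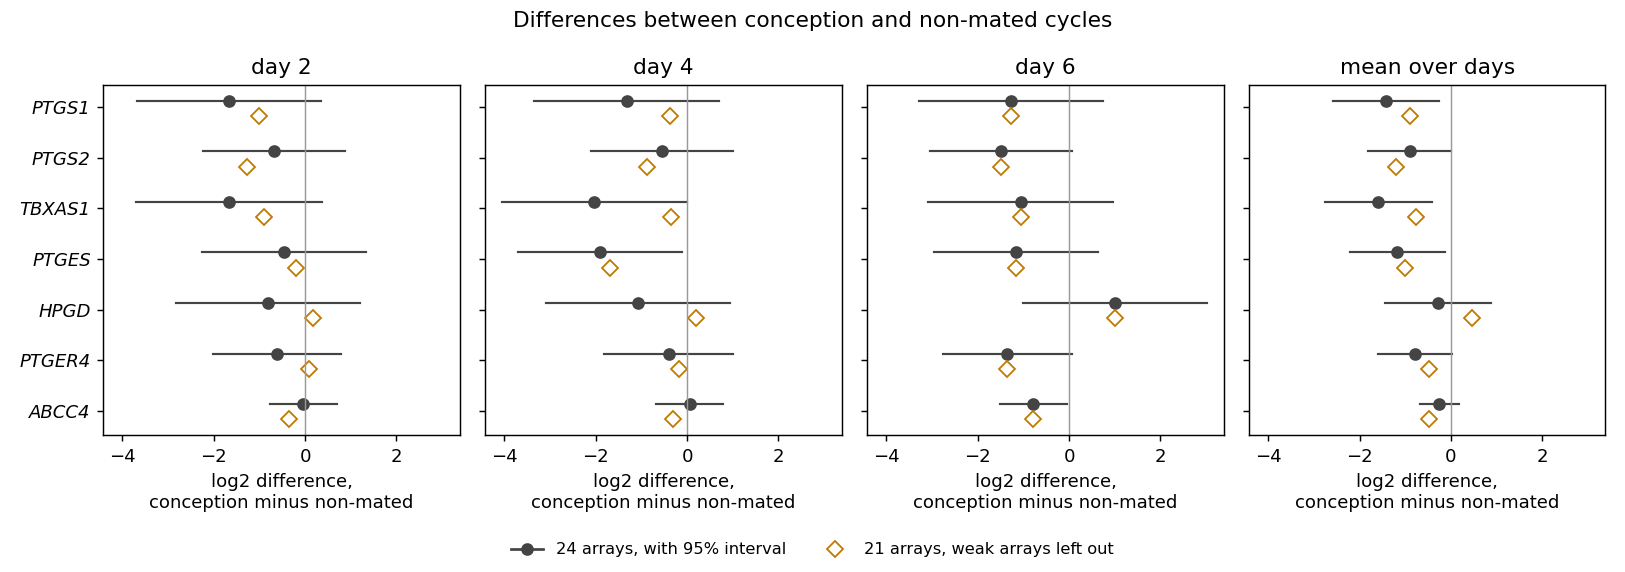
Log2 difference, conception minus non-mated, for the 7 genes at days 2, 4 and 6 and for the mean over days; filled circles with 95% intervals use 24 arrays, and open diamonds leave out the 3 weak arrays. The diamonds move towards 0 for TBXAS1 (-0.77 against -1.59 over the days) and away from 0 for PTGS2 (-1.21 against -0.91), while at day 6, which has no weak array, circles and diamonds coincide and HPGD alone lies above 0.

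HPGD, which inactivates prostaglandins, was the member whose day 6 difference was positive. Its levels at day 2 were -3.56, -3.11, -3.74 and -3.62 in conception cycles, against -4.25, -3.21, 0.27 and -3.58 in non-mated cycles. Day 4 levels were -4.85, -5.17, -3.35 and -4.59 in conception cycles, against -2.75, -1.57, -5.88 and -3.50 in non-mated cycles. Day 6 levels were -5.05, -5.01, -1.81 and -1.65 in conception cycles, against -3.90, -5.81, -4.84 and -3.02 in non-mated cycles. The day 6 conception arrays thus formed a low pair, not well above background, and a high pair above all non-mated arrays. The low pair was on slide 1 and scan day 2, and the high pair on slides 7 and 8 and scan day 1. The day 6 difference of 1.01 ± 0.97 (SE, adjusted p = 1.00 with limma) was 3.60 within scan day 1 and -1.57 within scan day 2. The sign of the difference was therefore opposite in the 2 scan days. Each slide of scan day 1 held 1 cycle type, so slide and cycle type cannot be told apart there. On slides 7 and 8 day 6 minus day 2 was 1.93 and 1.98, whereas on scan day 2 it was -1.70. Over the days the difference between cycle types was -0.29 ± 0.56 (adjusted p = 0.812 with limma) and 0.46 without the weak arrays.

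**Figure D3:**
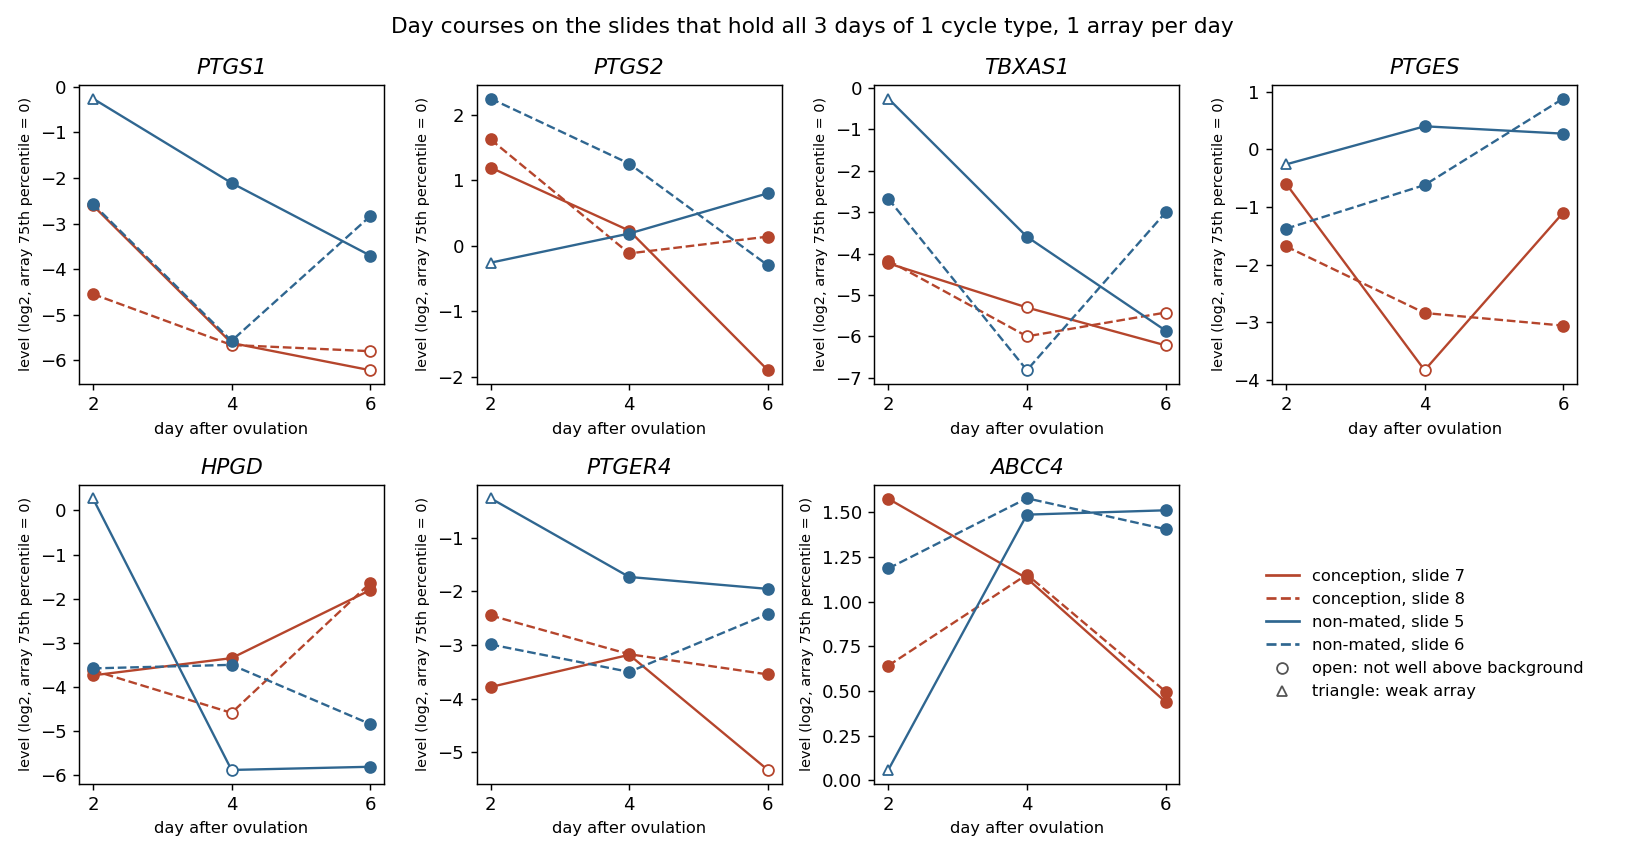
Level (log2, array 75th percentile at 0) of the 7 genes against day after ovulation on the 4 slides that hold all 3 days of 1 cycle type, conception slides 7 and 8 and non-mated slides 5 and 6, with 1 array per day; open symbols are not well above background and the triangle is a weak array. On both conception slides HPGD ends higher at day 6 than at day 2, by 1.93 and 1.98. PTGS2, PTGES, PTGER4 and ABCC4 end lower there, while PTGS1, TBXAS1 and, on slide 7, PTGER4 have open symbols at day 6. On scan day 2, not drawn, day 6 minus day 2 in conception cycles was -1.70 for HPGD and 0.70 for PTGES. It was negative there too for PTGS2, PTGER4 and ABCC4.

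PTGER4, a receptor for prostaglandin E2, had levels of -2.60, -3.24, -3.79 and -2.45 in conception cycles at day 2, against -3.70, -2.66, -0.26 and -2.99 in non-mated cycles. At day 4 they were -3.09, -1.74, -3.18 and -3.17 in conception cycles, against -2.78, -1.57, -1.73 and -3.50 in non-mated cycles. At day 6 they were -2.24, -4.73, -5.33 and -3.55 in conception cycles, against -2.83, -1.95, -2.42 and -3.24 in non-mated cycles. At day 6, 3 of the 4 conception arrays lay below every non-mated array, and 2 of those 3 were not well above background. The difference there was -1.35 ± 0.68 (SE, adjusted p = 1.00 with limma), with -0.66 on slide 1, -2.25 within scan day 1 and -0.45 within scan day 2. Slide 1 is part of scan day 2, and on scan day 1 slide and cycle type cannot be told apart. The PTGER4 difference was -0.62 ± 0.68 at day 2 and -0.40 ± 0.68 at day 4 (adjusted p = 0.796 and 0.838 with limma). Without the weak arrays the sign turned at day 2, to 0.10, and the day 4 difference was -0.18.

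ABCC4, an exporter of prostaglandins and other organic anions, had the smallest SE of the 7 genes in the fit. Its levels at day 2 were 1.03, 0.60, 1.58 and 0.64 in conception cycles, against 1.67, 1.11, 0.06 and 1.19 in non-mated cycles. Day 4 levels were 1.14, 1.49, 1.13 and 1.15 in conception cycles, against 1.23, 0.39, 1.49 and 1.58 in non-mated cycles. Day 6 levels were 0.91, 0.01, 0.44 and 0.50 in conception cycles, against 1.17, 1.51, 1.41 and 0.89 in non-mated cycles. The day 6 groups overlapped by 1 array on each side. The difference was -0.04 ± 0.36 (SE) at day 2, 0.06 ± 0.36 at day 4 and -0.78 ± 0.36 at day 6, with adjusted p of 0.974, 0.963 and 1.00 with limma. Without the weak arrays it was -0.36 at day 2 and -0.31 at day 4, where the sign turned. The day 6 ratio was 0.583, with an unadjusted p of 0.0395 by limma's test. Within batches the day 6 difference was -0.71 on slide 1, -0.99 within scan day 1 and -0.56 within scan day 2. Here too slide 1 is part of scan day 2, and slide and cycle type cannot be told apart on scan day 1. Array weights in limma gave -0.94 at day 6 (adjusted p = 0.0842), the smallest of any member under any alternative, and the adjusted p for this difference ran from 0.0842 to 1.00. In conception endometrium every array of day 6 was below every array of day 4, as was so for 2.2% of all features in either direction, with a difference of -0.76 ± 0.36 (adjusted p = 1.00 with limma).

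Across days, 0 of 7 members passed in day 4 minus day 2 (0% of all features) and in day 6 minus day 4 (0%) of conception cycles. In day 6 minus day 2 of conception cycles 0 of 7 passed, against 0.0163% of all features, or 1.68% without the weak arrays, where the smallest adjusted p of a member was 0.245. In the 3 day contrasts of non-mated cycles 0 of 7 passed, against 0% of all features in each. The interaction of cycle type and day gave 0 of 7, again against 0%. At an unadjusted p under 0.05 members numbered 0, 1 and 1 in conception cycles for day 4 minus day 2, day 6 minus day 4 and day 6 minus day 2. All features at that level were 2.62%, 0.621% and 4.2%. In non-mated cycles members numbered 0, 0 and 1 in the same order, against 3.2%, 3.52% and 3.29% of all features.

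The probes described as PTGES3 and PTGDS are not members by gene name and are given for completeness. PTGES3, a cytosolic prostaglandin E synthase and chaperone partner, averaged 2.92 ± 0.36 in conception and 2.74 ± 0.31 in non-mated cycles at day 6 (SD, n = 4 each). PTGDS, which makes prostaglandin D2, averaged 1.11 ± 0.79 and 0.92 ± 0.34 in the same groups. Neither passed, with log2 differences of 0.18 ± 0.45 and 0.19 ± 0.63 (SE, adjusted p = 1.00 for both with limma).

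Other genes of eicosanoid metabolism showed no passing difference either. Of 19 tested, 0 rose and 0 fell in each of the 4 comparisons of cycle types, with and without the weak arrays. Their median difference at day 6 was 0.03, with 11 positive and 8 negative, against a median of -1.16 over the 7 members and -0.00090 over all features. Members and lists were chosen with earlier results of these data known, so this contrast is a description and tests nothing. The genes with the smallest p at day 6 were CBR3, a carbonyl reductase of prostaglandins, at -0.96 ± 0.48, SLCO2B1, an organic anion carrier, at -0.60 ± 0.43, and SLCO4A1, another carrier of that family, at 1.31 ± 0.99 (SE, adjusted p = 1.00 for each with limma). At day 4 they were MGLL, which releases arachidonic acid from monoacylglycerol lipids, at -1.90 ± 0.81, SLCO4A1 at 1.87 ± 0.99 and SLCO2A1, the prostaglandin uptake carrier, at -1.31 ± 0.94, and without the weak arrays these were -0.56, 2.74 and 0.38. The adjusted p with limma was 0.703, 0.703 and 0.705. At day 2 they were CBR1 at 0.79 ± 0.43, AKR1C3, a prostaglandin F synthase, at -1.49 ± 0.86, and the nuclear receptor PPARD at 0.38 ± 0.28 (adjusted p = 0.789 for each with limma), and without the weak arrays these were 0.38, -0.54 and 0.30. For the mean over days they were MGLL at -0.95 ± 0.47, SLCO4A1 at 0.86 ± 0.57 and CBR3 at -0.35 ± 0.27 (adjusted p = 0.677 for each with limma), and without the weak arrays these were -0.22, 1.36 and -0.19. The thromboxane receptor TBXA2R and the prostacyclin receptor PTGIR were well above background on 0 of 24 arrays and were not tested.

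**Figure D4:**
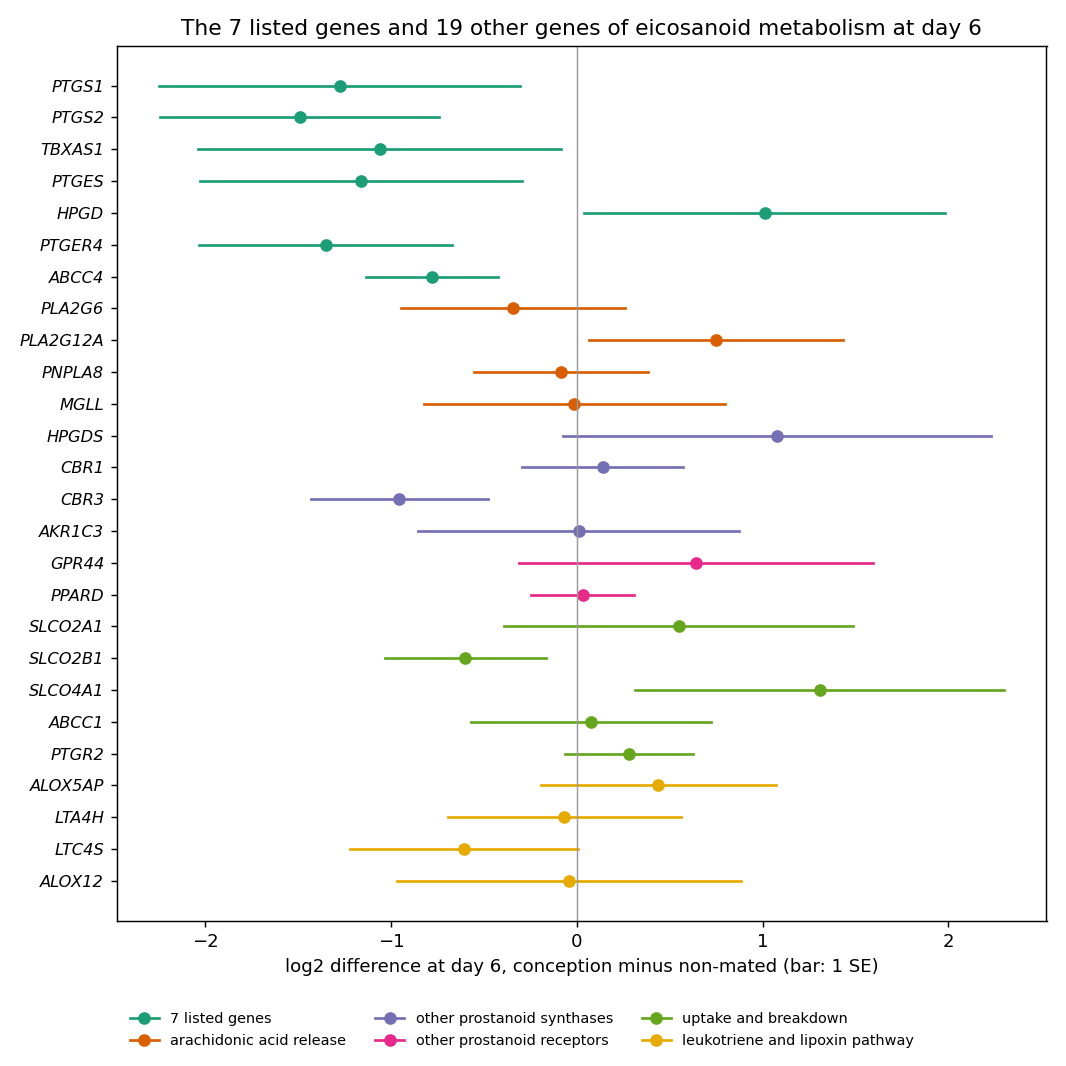
Log2 difference at day 6, conception minus non-mated, with 1 SE, for the 7 members and 19 other genes of eicosanoid metabolism, coloured by list. The members other than HPGD lie between -1.49 and -0.78, and the other genes lie on both sides of 0, from -0.96 (CBR3) to 1.31 (SLCO4A1).

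Platelets and macrophages are known sources of TBXAS1 and PTGS1 transcripts, so their markers were read beside them. The platelet genes PF4 and PPBP were well above background on 1 array each. The 2 of 5 platelet markers tested, GP9 and ITGA2B, had a mean level between -3.02 and -2.12 in conception cycles at day 6, against -4.39 to -2.99 in non-mated cycles. The 3 of 5 macrophage markers tested, CD68, CD14 and CSF1R, ranged from -2.45 to -1.23 in conception cycles at day 6, against -1.99 to -1.60 in non-mated cycles. The median difference of the platelet markers was -1.11 at day 2 and -0.48 at day 4, conception minus non-mated. Without the weak arrays it was -0.24 and 0.33. For the macrophage markers it was 0.07 and 0.95, and 0.36 and 0.85 without the weak arrays. None of these markers passed a test between cycle types, and their part in the TBXAS1 and PTGS1 levels was not tested. Markers of smooth muscle, MYH11 and DES, averaged 5.67 on conception day 2 replicate 2, and 0.50 to 3.25 on the other arrays that were not weak. On that array PTGS2 was at 1.45, within the range of the others.

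Members were compared with each other and with all named genes over the 21 arrays that were not weak, several of which share a slide or a scan day, as a description. PTGS1 and PTGES had the highest correlation among the 7 (Pearson r = 0.72), followed by PTGS1 and TBXAS1 (0.64), while HPGD ran against PTGER4 (-0.57), PTGES (-0.55) and PTGS1 (-0.55). PTGS1 and PTGS2 were near 0.16. PTGS1 and TBXAS1 were both at the array's floor on conception day 6 replicates 2 and 3, where their levels are equal, and TBXAS1 was unmeasured on most arrays, so their correlation holds values of that floor. The genes closest to PTGS1 were PAQR5 (0.93), ATP12A (0.91) and H2AC13 (0.91), and those closest to PTGES were EZH1 (0.86), SPHKAP (0.84) and HSPC159 (0.83). For PTGS2 they were CFAP100 (0.77), CAB39L (0.75) and ZFYVE27 (0.74), and for TBXAS1 they were TXNDC16 (0.85), AMPD3 (0.81) and TBL1X (0.80). For HPGD they were HPCAL4 (0.86), CYCS (0.84) and RPP40 (0.84), and for ABCC4 they were CYLD, TEX11 and SLC31A2 (0.72, 0.71 and 0.71).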

How the data were processed

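Cy3-labelled cRNA from endometrial RNA was hybridised to 1-colour Agilent arrays. The authors deposited scanner files with intensity per spot, made with Feature Extraction 9.5.3.1 per the file headers and 10.7.3.1 per the submitters' processing notes. They also deposited a table of log2 values, used as an alternative. Its columns, each taken minus the column of the first array, correlated with scanner levels treated alike at r of at least 0.998. Column medians ran from -0.41 to 0.11 on 21 arrays. They were 2.87, 0.70 and 2.13 on the arrays with under 50% of probes well above background, and the baseline of the table is unknown.

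Control spots and spots flagged as outliers were left out, and the spots kept of the 2 per probe were averaged. The level was log2 of the processed signal minus the 75th percentile of the array. A probe was kept where 3 or more of the 4 arrays in some group were well above background (12780 of 20217). The brightest probe stood for a gene, which gave 12247 features, 7535 of them with a symbol. For genes other than the members, symbols were updated through RefSeq gene IDs, accessions and synonyms. Group means of all 24 arrays were fitted with limma 3.58.1 in R 4.3.3 (18 residual degrees of freedom), with two-sided tests and Benjamini-Hochberg adjustment at 0.05. The test was tested on simulated data. Python 3.11.15, pandas 2.3.3, numpy 2.4.6 and matplotlib 3.10.9 were used for reading and plots.

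Slides are numbered 1 to 9 and scan days 1 and 2 from the headers. On 6 arrays of slides 4 and 8 a single scan range was used, 5 of them from conception cycles. The 75th percentile of the signal ran from 22.8 to 5397 between arrays, and the number of arrays limits the precision. Results were recomputed under 11 other settings (background correction, normalization, filter, value table, blocks, arrays left out) and without each array in turn, and 2 settings (levels raised to a common floor, and without the single-range arrays) were chosen after seeing the data. Every member found is described, and of the other pathway genes the 3 with the smallest p in each comparison of cycle types are named. The members and lists were chosen with earlier results of these data known.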

Additional observations from a re-analysis of the deposited data

Results flagged for a closer look

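In 4 of 48 groups of 4 arrays, 1 array lay far from the other 3, with a gap, relative to the group's range, above Dixon's critical value. Chance alone flags about 1 in 20 such groups. All 4 were conception arrays. PTGS2 at day 2 was -0.90 on replicate 1, and between 1.19 and 1.62 on the others. PTGS1 at day 6 was -2.48 on replicate 1, against -6.21 to -5.68 on the others, which were not well above background. At day 4 replicate 2 was high for both PTGER4, at -1.74 against -3.18 to -3.09, and ABCC4, at 1.49 against 1.13 to 1.15. Without PTGS1's high array the day 6 difference between cycle types was -2.13 in place of -1.28.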

How the results depend on the processing

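No member passed the threshold under any alternative run, 37 for each comparison and 36 for the mean over days and the interaction (limma), and the smallest adjusted p was 0.0842. Member values under alternatives numbered 2835, including adjusted p values of the interaction, which could not count as moved. Of these, 19 log2 differences moved by more than the spread between arrays. Leaving out an array of a group not compared could move none. The other sign appeared for 34 of 70 signed differences under at least 1 alternative, so those directions are not settled. They include differences far from 0, such as HPGD at day 4, at -1.07 and 0.20 without the weak arrays, and TBXAS1 in non-mated cycles, day 6 minus day 4, at -1.14 and 0.54 without them. At day 6 the differences of PTGS2, PTGS1, TBXAS1, PTGES, PTGER4 and ABCC4 stayed negative under every alternative, and that of HPGD stayed positive. Many alternatives could not change them, since day 6 has no weak array and leaving out arrays of other days keeps its group means. Levels near background limit PTGS1, TBXAS1 and HPGD most. Normexp background correction gave day 2 differences of 0.02 for PTGS1 and -0.02 for TBXAS1, and array weights gave 0.47 for PTGS1 at day 4, in place of -1.66, -1.67 and -1.32. Quantile normalization gave 0.48 for PTGS2 and 0.58 for PTGER4 at day 2. The cause was not tested.

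The count of all features past the threshold was small and depended on the setting. Between cycle types at day 6 it was 1, against 0 with normexp, quantile normalization, no filter on dim probes, slide or scan day as a block, a replicate block, only the groups compared, or without the single-range arrays, 3 without the weak arrays and 13 with array weights. Leaving out 1 array at a time gave 0 to 4. For the mean over days it was 1, against 0 with normexp, quantile normalization, slide as a block or without the single-range arrays, 2 with scan day as a block or without the weak arrays, 4 with array weights, and 1 to 4 leaving out 1 array. At day 2 and for the interaction array weights gave 1 in place of 0. In conception cycles day 4 minus day 2 gave 0, against 1 without the weak arrays, 1 with a common floor, 30 with array weights and 0 to 2 leaving out 1 array. Day 6 minus day 2 gave 2, against 0 with normexp, quantile normalization, no filter, slide as a block or without the single-range arrays, 1 with the replicate block, 123 with only the groups compared, 206 without the weak arrays, 217 with a common floor, 224 with array weights, and 0 to 4 leaving out 1 array. Same-numbered arrays of the 2 cycle types deviated together at r from -0.23 to 0.46. No pairing by number was used in the main fit, though such values cannot exclude it. No member was called in the main fit or with the replicate block.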
